A study of Mus musculus with 24 samples.

Results

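The motile cilia genes are 52 genes listed by symbol for the beating cilia of the airway: transcription factors of the ciliated cell, dynein motors and their assembly factors, the struts of the axoneme (the microtubule shaft of a cilium), and a few other genes of ciliated cells. Their rows were taken from the deposited gene counts by exact symbol. Of the 52, 50 were in the file, out of 26253 genes in all, and Dnai1 and Dnai2 were not found under those symbols. All 50 passed the filter on low counts, which left 16153 genes to test, and the lowest count of any of them in any library was 27, for Mcidas. The study sequenced RNA of mouse lung from animals fed a control diet or one with docosahexaenoic acid (DHA, an omega-3 fatty acid) and exposed to filtered air or to ozone, an irritant gas. Each of the 4 groups (control diet and filtered air, control diet and ozone, DHA diet and filtered air, DHA diet and ozone) holds 6 libraries, 24 in all. The labels give no strain, sex or age of the mice, no ozone concentration and no times of feeding or exposure. The labels do not say that each library came from a separate mouse, so the p-values speak to the spread of these libraries alone, which may in part be technical.

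Motile cilia of the airway beat to move mucus out of the lung, and in the lung they sit on multiciliated epithelial cells of the bronchi and bronchioles. Multicilin (Mcidas) starts the making of a multiciliated cell, and Foxj1 and the RFX factors then switch on the genes of the axoneme. Within the axoneme, outer arm dyneins set mainly the beat frequency and inner arm dyneins the waveform, while nexin links, radial spokes and the central pair of microtubules pass control to the motors.

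Library totals ran from 18053493 to 26225630 counts. Lung markers were present: all 10 alveolar type 2 markers, all 8 alveolar type 1 markers and all 12 club cell markers on the lists used had counts in every library. Some libraries stood apart. In control-diet air libraries 1 to 3, the mean over 79 ribosomal protein genes was 6.00 to 6.07 log2 CPM (counts-per-million), against 6.40 to 6.45 in libraries 4 to 6. It was 6.14 to 6.37 in control-diet ozone, 6.22 to 6.43 in DHA-diet air and 6.25 to 6.38 in DHA-diet ozone. In the same libraries 1 to 3 the mean over the 50 motile cilia genes was 5.79, 5.93 and 5.85 log2 CPM, the 3 highest values of the 24, against 5.60, 5.49 and 5.23 in libraries 4 to 6. DHA-diet ozone library 1 had the lowest mean of all, 4.69, and was the lowest of the 24 for 42 of the 50 genes, while library 2 of that group, at 5.54, was the highest of its group for 45 of them. Values without control-diet air libraries 1 to 3, or without DHA-diet ozone libraries 1 and 2, are given beside the counts and calls that change most when they are left out. Those 3 air libraries are the highest in the set, so without them its mean fall on the control diet had to be weaker.

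**Figure D1:**
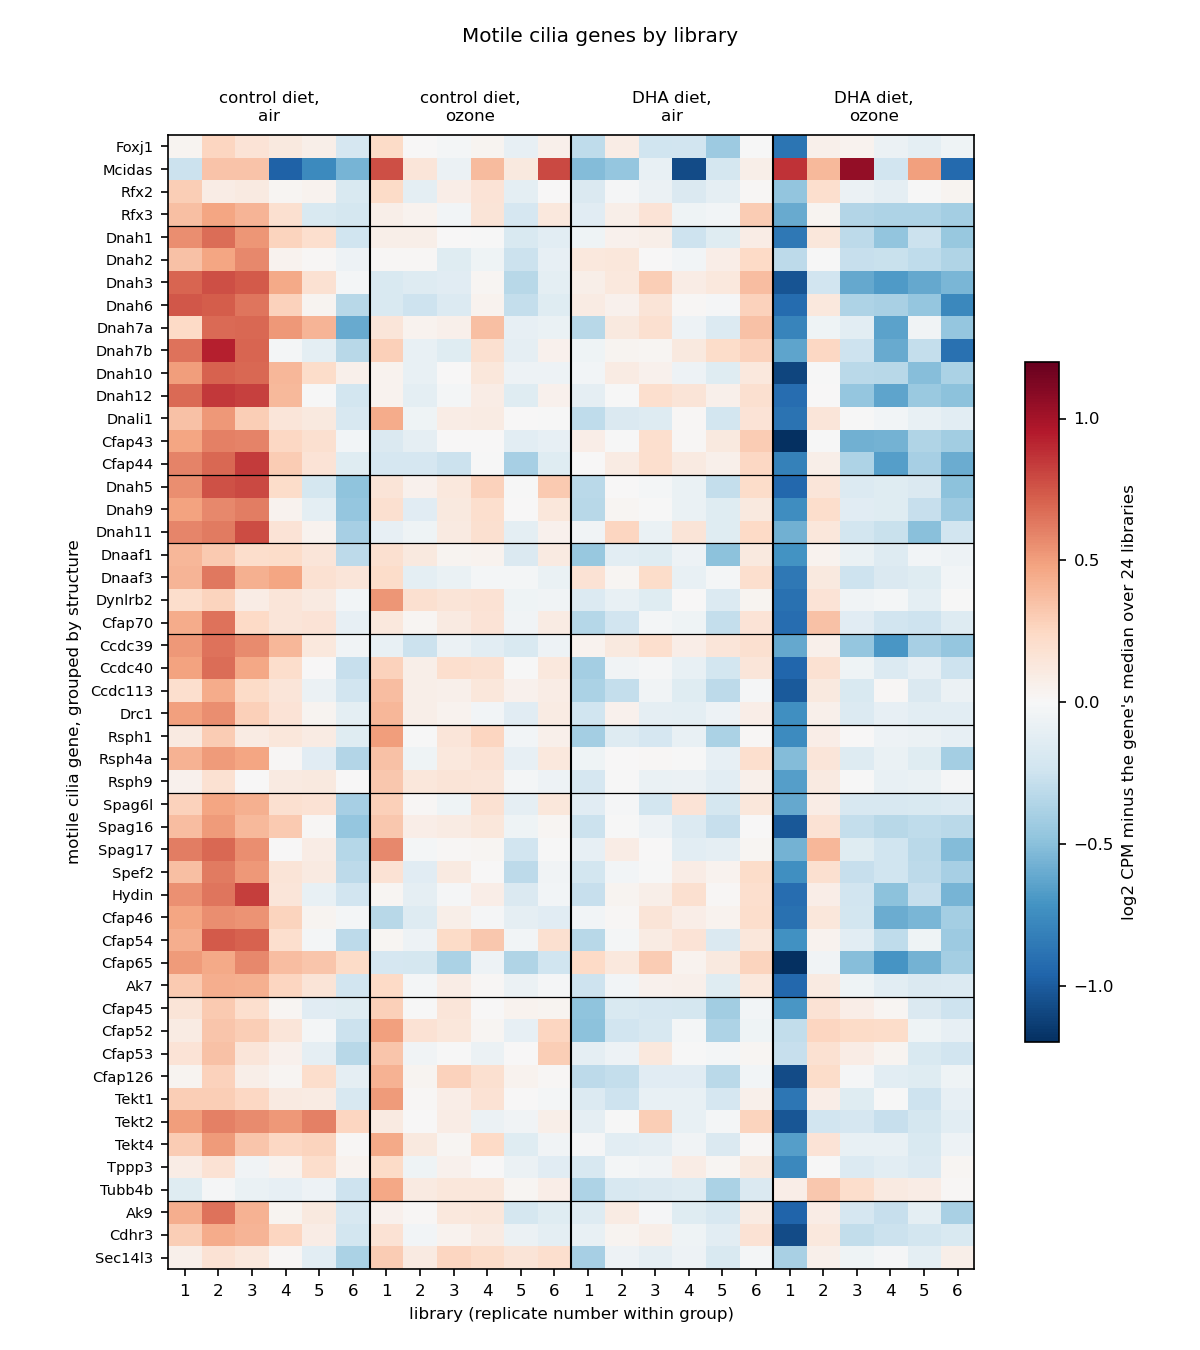
Each cell is the log2 CPM of a motile cilia gene (vertical axis, grouped by its place in the cilium) in a library (horizontal axis, replicate number within group), minus that gene's median over the 24 libraries. Control-diet air libraries 1 to 3 are red and DHA-diet ozone library 1 is blue for nearly every gene. The inner arm block, which takes in Cfap43 and Cfap44 beside the dynein chains, is bluer after ozone than in air.

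The genes rose and fell together from library to library. In control-diet air libraries 1, 2 and 3, respectively 48, 49 and 48 of the 50 genes lay above their own median over the 24 libraries. In DHA-diet ozone library 1 there were 2, in library 2 there were 42, and in libraries 3 to 6 between 2 and 7. The spread within a group was wider than for other genes where those libraries fell: the median coefficient of variation (SD as a percent of the mean) was 17.6% over the motile cilia genes against 10.4% over all tested genes in control-diet air, and 21.2% against 10.9% in DHA-diet ozone. In the other groups it was close to that of all genes, at 9.0% against 8.68% in control-diet ozone and 8.90% against 8.56% in DHA-diet air. Mcidas, the gene with the fewest counts, varied most in every group, from 25.4% in control-diet ozone to 43.6% in DHA-diet ozone.

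Levels differed by orders of magnitude between the genes when set per kilobase of exon (mean over the 24 libraries, in CPM per kilobase). Sec14l3, a lipid-binding protein of airway ciliated cells at chr11:4014853-4028991 (mm39, as for all gene positions here), was the highest at 1251, followed by Tppp3, a tubulin-binding protein at chr8:106194124-106198055, at 370.2 and Tubb4b, the main beta-tubulin of cilia at chr2:25112170-25114715, at 313. Lowest were the inner arm dynein heavy chains Dnah7a at 0.828 and Dnah7b at 0.833, then Mcidas at 1.24. Dnah7a (chr1:53436161-53745944) and Dnah7b (chr1:46106013-46412707) are closely similar genes, both on chromosome 1, so their counts could be split or lost between them and are uncertain. Foxj1 (chr11:116221530-116226181) stood at 108, far above the other transcription factors Rfx2 at 6.37 and Rfx3 at 1.91. By the deposited coordinates, 16 of the 50 genes overlap another gene of the file, Tubb4b and Fam166a among them, and no source used here gives the strand setting of the counting, so reads of such pairs may not be told apart. The 16 may be too many, as some small RNA symbols have spans that take in distant members. Rnu6 spans both Spag16 and Cfap65, and Snora19 both Rfx3 and Cfap43.

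A group of inner arm dynein genes and a few structural genes of the axoneme were lower after ozone on both diets, on the control diet largely through 3 air libraries, and most other genes of the set did not pass the test. On the control diet 13 of the 50 genes fell and 1 rose after ozone, at a Benjamini-Hochberg adjusted p under 0.05 in edgeR's quasi-likelihood test over all 16153 genes. Among all tested genes 7.87% fell and 8.93% rose in that comparison. With the DHA diet 13 fell and 2 rose, where 11% of all genes fell and 12.7% rose. The median log2 change over the 50 genes was -0.19 on either diet (-0.01 over all tested genes on either), and 40 genes on the control diet and 39 on the DHA diet had a fitted change below 0 (51.5% and 52.3% of all tested genes). At an unadjusted p under 0.05 there were 20 and 23 of the 50, against 30.4% and 35.6% of all genes. The ozone comparisons share no libraries, though they share 1 estimate of the spread. Of the genes that fell 11 were the same, 84.6% of each list: Dnah2, Dnah3, Dnah6, Dnah10, Dnah12, Cfap43, Cfap44, Ccdc39, Cfap46, Cfap65 and Tekt2. The overlap among all genes that fell was not counted. Without control-diet air libraries 1 to 3, Dnah3, Cfap65 and Tekt2 were the ones of the 11 still called on both diets. Dnah1 and Dnaaf3 were called on the control diet, and Rfx3 and Hydin on the DHA diet; no difference between diets was called for any of these 4 (interaction, adjusted p from 0.899 to 0.995). In lung tissue of many cell types, fewer ciliated cells and less of a transcript per ciliated cell cannot be told apart.

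The control-diet count rests largely on air libraries 1 to 3. Without them 3 genes fell (Dnah3, Cfap65 and Tekt2), 3 rose (Tubb4b, Mcidas and Sec14l3) and the median log2 change over the 50 genes was 0.04. Among all tested genes 5.79% fell and 5.19% rose in that setting, so 3 of 50 either way lay near the share of all genes. For the DHA diet the count was 16 lower and 2 higher without ozone libraries 1 and 2, where 10.2% of all genes fell and 11.9% rose.

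**Figure D2:**
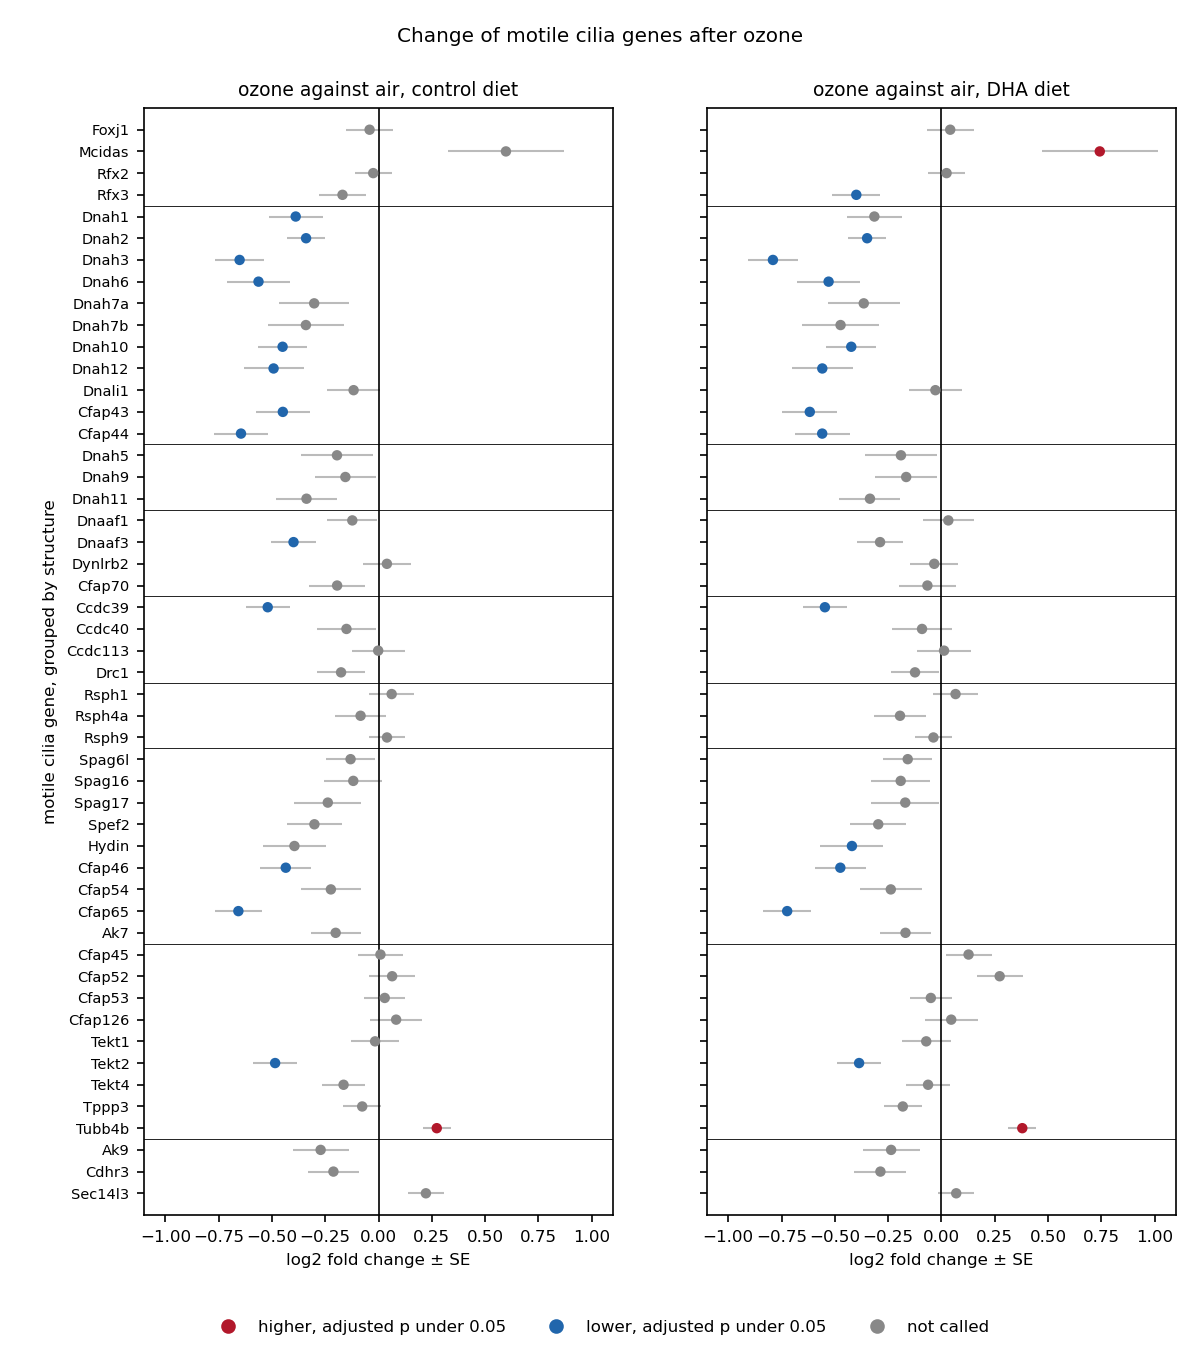
Fitted log2 fold change with its SE (horizontal axis) of each motile cilia gene (vertical axis, grouped by structure) after ozone on the control diet (left) and the DHA diet (right), blue and red where the adjusted p was under 0.05. Most inner arm dynein genes sit left of 0 in both panels, the radial spoke genes sit near 0, and Tubb4b sits to the right.

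Genes of the inner arm class, which takes in the tether genes Cfap43 and Cfap44 beside the dynein chains, were most of the genes that fell. Of its 11 genes 8 fell on the control diet and 7 on the DHA diet, with a median log2 change of -0.45 and -0.47. When control-diet air libraries 1 to 3 were left out, Dnah3 alone of the 11 fell on the control diet, and the median was -0.12. Without DHA-diet ozone libraries 1 and 2, 9 of the 11 fell on the DHA diet, with a median of -0.58. Dnah3, an inner arm heavy chain at chr7:119520556-119694521, had 59.5 to 103 CPM (median 90.5) in control-diet air and 47.9 to 61.4 CPM (median 54.5) after ozone. On the DHA diet it had 63.4 to 78.1 CPM (median 66.1) in air and 29.4 to 51.6 CPM (median 39.5) after ozone. Every DHA-diet ozone library lay below every DHA-diet air library, and on the control diet air library 6 alone fell within the ozone range. The log2 change of Dnah3 was -0.65 ± 0.11 on the control diet (adjusted p = 0.000359) and -0.79 ± 0.12 on the DHA diet (adjusted p = 3.11e-05), and without control-diet air libraries 1 to 3 it was -0.37 on the control diet (adjusted p = 0.0372). Groups that do not overlap were found, on either diet, for 3 of the 50 genes in the lower direction and for 1 in the higher. Among all tested genes those shares were 3.26% and 4.5% on the control diet and 3.89% and 5.14% on the DHA diet.

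Cfap44 and Cfap43 form the tether that holds an inner arm dynein to the microtubule doublet. Cfap44 (chr16:44215162-44302792) had 48.9 to 96.3 CPM (median 73.9) in control-diet air and 40.8 to 53.7 CPM (median 46.9) after ozone, and 54.1 to 63.9 CPM (median 57.8) in DHA-diet air against 30.7 to 56.5 CPM (median 38.4) after ozone. The ranges met on both diets, through air library 6 on the control diet and ozone library 2 on the DHA diet. Its log2 change was -0.65 ± 0.13 on the control diet (adjusted p = 0.00114) and -0.56 ± 0.13 on the DHA diet (adjusted p = 0.00263). Cfap43 (chr19:47725296-47825801) had 74.2 to 116 CPM (median 98.1) in control-diet air and 67.2 to 76.3 CPM (median 70.7) after ozone, and 75.7 to 94.1 CPM (median 81.4) in DHA-diet air against 30.8 to 75.8 CPM (median 54.02) after ozone. In mice fed DHA its highest ozone value, in library 2, exceeded the lowest air value by a narrow margin. Its log2 change was -0.45 ± 0.13 on the control diet (adjusted p = 0.016) and -0.62 ± 0.13 on the DHA diet (adjusted p = 0.00102).

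Among the other heavy chains of the inner arm, Dnah10 (chr5:124802149-124911373) had 61.7 to 96.7 CPM (median 80.8) in control-diet air and 55.8 to 65.2 CPM (median 58.03) after ozone, and 53.7 to 64.8 CPM (median 59.7) in DHA-diet air against 27.5 to 58.96 CPM (median 46.2) after ozone. Dnah12 (chr14:26412709-26613663) had 33.7 to 70.9 CPM (median 57.1), 35.4 to 41.9 CPM (median 39.6), 36.4 to 45.3 CPM (median 42.3) and 20.8 to 39.3 CPM (median 28.2) in the same order of groups. Dnah2 (chr11:69311635-69439935) had 29.8 to 46.5 CPM (median 35.8), 26.03 to 31.3 CPM (median 29.6), 30.3 to 36.6 CPM (median 33.3) and 24.1 to 30.9 CPM (median 25.4). For all 3 the ozone median lay below the air median on each diet, and the ranges overlapped. Dnah10 had a log2 change of -0.45 ± 0.12 on the control diet (adjusted p = 0.0084) and -0.42 ± 0.12 on the DHA diet (adjusted p = 0.00977). Dnah12 had a log2 change of -0.49 ± 0.14 on the control diet (adjusted p = 0.0168) and -0.56 ± 0.14 on the DHA diet (adjusted p = 0.00561). Dnah2 had one of -0.34 ± 0.09 on the control diet (adjusted p = 0.00988) and -0.35 ± 0.09 on the DHA diet (adjusted p = 0.00582). Dnah6 fell on both diets too, by a log2 change of -0.56 and -0.53, and Dnah1 on the control diet, with -0.39. The calls of Dnah1, Dnah2, Dnah6, Dnah10, Dnah12, Cfap43 and Cfap44 on that diet ended without control-diet air libraries 1 to 3, with adjusted p from 0.0981 to 0.686. Their log2 changes were then -0.12 for Dnah1, -0.09 for Dnah2, -0.18 for Dnah6, -0.24 for Dnah10, -0.10 for Dnah12, -0.23 for Cfap43 and -0.32 for Cfap44. The call of Dnah1 also ended without any 1 of control-diet air libraries 1, 2 and 3 or control-diet ozone libraries 5 and 6, and that of Dnah12 without control-diet air library 3.

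The low heavy chains did not pass the test. Dnah7a had 6.39 to 15.7 CPM (median 13.4) in control-diet air and 9.04 to 12.4 CPM (median 10.03) after ozone, and 7.69 to 12.4 CPM (median 9.90) in DHA-diet air against 5.59 to 9.41 CPM (median 7.95) after ozone. Dnah7b had 7.77 to 18.7 CPM (median 12.5), 8.87 to 11.9 CPM (median 9.70), 9.46 to 11.8 CPM (median 10.3) and 5.28 to 11.7 CPM (median 7.23) in that order of groups. Their log2 changes lay between -0.47 and -0.30, within the range of the heavy chains that were called, with adjusted p from 0.0594 to 0.216. Dnali1, the light intermediate chain of the inner arm, showed log2 changes of -0.12 ± 0.12 and -0.03 ± 0.13. No outer arm gene was called: Dnah5, Dnah9 and Dnah11, the outer arm heavy chains, had log2 changes from -0.34 to -0.16 over both diets. For Dnah5 the 95% interval of the change ran from -0.53 to 0.14 on the control diet and from -0.52 to 0.14 on the DHA diet, intervals that take in the fitted change of Dnah10. On the control diet without air libraries 1 to 3 the changes were 0.28 for Dnah5, 0.25 for Dnah9 and 0.06 for Dnah11, none called, and -0.11 for Dnah7a and 0.19 for Dnah7b. The difference between inner and outer arm genes was not tested.

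The listed outer arm intermediate chains Dnai1 and Dnai2 are given in the RefSeq gene table as synonyms of the file's Dnaic1 and Dnaic2, which were not counted as members. After ozone Dnaic1 showed a log2 change of -0.25 ± 0.12 on the control diet (adjusted p = 0.133) and -0.13 ± 0.12 on the DHA diet (adjusted p = 0.462). Dnaic2 showed -0.04 ± 0.10 and 0.05 ± 0.10 (adjusted p = 0.826 and 0.761). Neither was called, as for the outer arm heavy chains. The factors that assemble dynein arms in the cytoplasm gave 1 call: Dnaaf3 fell on the control diet (-0.40 ± 0.11, adjusted p = 0.0112), a call that ended without air libraries 1 to 3, and Dnaaf1 showed -0.12 ± 0.12 and 0.03 ± 0.12.

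Ccdc39, a subunit of the ruler that spaces dynein arms along the doublet, fell while its partner Ccdc40 did not pass the test. Ccdc39 (chr3:33866510-33898460) had 29.3 to 47.5 CPM (median 41.6) in control-diet air and 25.3 to 28.96 CPM (median 28.1) after ozone, and 31.2 to 34.8 CPM (median 33.2) in DHA-diet air against 18.6 to 31.5 CPM (median 21.9) after ozone. Every control-diet ozone library lay below every air library, and on the DHA diet ozone library 2 alone reached the air range. Its log2 change was -0.52 ± 0.10 on the control diet (adjusted p = 0.00108) and -0.55 ± 0.10 on the DHA diet (adjusted p = 0.000465). Without air libraries 1 to 3 the change of Ccdc39 on the control diet was -0.30 and was not called (adjusted p = 0.0728). Ccdc40 showed log2 changes of -0.15 ± 0.14 and -0.09 ± 0.14, Ccdc113 -0.00 ± 0.12 and 0.01 ± 0.13, and the nexin link gene Drc1 -0.18 ± 0.11 and -0.12 ± 0.11. Ccdc39 overlaps Ttc14 in the deposited coordinates.

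In the central pair, 2 of 9 genes fell on the control diet and 3 of 9 on the DHA diet. Cfap65 (chr1:74941239-74974759), whose Chlamydomonas counterpart is a central pair protein, had 119 to 151 CPM (median 135) in control-diet air and 77.8 to 97.02 CPM (median 86.7) after ozone. On the DHA diet it had 104 to 125 CPM (median 115) in air and 43.1 to 98.4 CPM (median 69.8) after ozone. Ozone and air libraries did not overlap on either diet. The log2 change was -0.66 ± 0.11 on the control diet (adjusted p = 0.000225) and -0.72 ± 0.11 on the DHA diet (adjusted p = 4.94e-05), and without control-diet air libraries 1 to 3 it was -0.56 on the control diet (adjusted p = 0.0102). Cfap46 (chr7:139180831-139263732), another central pair protein, had 34.6 to 51.7 CPM (median 45.4) and 27.9 to 36.8 CPM (median 32.2) on the control diet, and 34.4 to 40.5 CPM (median 36.6) and 18.9 to 38.6 CPM (median 25.2) on the DHA diet, in air and after ozone. Its ranges overlapped, and its log2 change was -0.44 ± 0.12 on the control diet (adjusted p = 0.013) and -0.47 ± 0.12 on the DHA diet (adjusted p = 0.00538). On the control diet the call of Cfap46 ended without air libraries 1 to 3, with a log2 change of -0.21 (adjusted p = 0.351). Hydin, a very large central pair protein mutated in human primary ciliary dyskinesia, was called on the DHA diet, with -0.42 ± 0.15 (adjusted p = 0.0395), and showed -0.39 ± 0.15 on the control diet (adjusted p = 0.0624; 0.01 without air libraries 1 to 3, adjusted p = 0.969). The call of Hydin ended when any 1 of DHA-diet air libraries 2 to 6 or DHA-diet ozone libraries 1, 4 and 6 was left out. Spag6l, Spag16, Spag17, Spef2, Cfap54 and Ak7 were not called after ozone, with log2 changes from -0.30 to -0.12 over both diets.

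The radial spoke head genes Rsph1, Rsph4a and Rsph9 were not called after ozone. Their log2 changes ran from -0.19 to 0.07 over both diets. For Rsph1 the 95% interval ran from -0.15 to 0.27 on the control diet and from -0.14 to 0.28 on the DHA diet, which leaves out the changes of Dnah3 and Cfap65.

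Genes of the microtubule doublet went both ways. Tekt2, a tektin filament protein inside the doublet at chr4:126215914-126219482, had 24.2 to 30.9 CPM (median 29.5) in control-diet air and 19.3 to 21.9 CPM (median 20.8) after ozone, and 18.9 to 24.8 CPM (median 20.1) in DHA-diet air against 9.98 to 18.6 CPM (median 17.4) after ozone. Every ozone library lay below every air library on each diet. Its log2 change was -0.48 ± 0.10 on the control diet (adjusted p = 0.00195) and -0.39 ± 0.10 on the DHA diet (adjusted p = 0.00842), and without control-diet air libraries 1 to 3 it was -0.44 on the control diet (adjusted p = 0.0293). The tektins Tekt1 and Tekt4 were not called, with log2 changes from -0.16 to -0.02.

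Tubb4b rose on both diets. It had 421 to 496 CPM (median 469.7) in control-diet air and 509 to 691 CPM (median 545) after ozone, and 386 to 449.5 CPM (median 441) in DHA-diet air against 506 to 627 CPM (median 536) after ozone. Every ozone library lay above every air library on each diet, and control-diet ozone library 1 stood well above the others of its group. The log2 change was 0.27 ± 0.07 on the control diet (adjusted p = 0.00507) and 0.38 ± 0.07 on the DHA diet (adjusted p = 0.000167). Beta-tubulin genes resemble each other closely and other lung cells also make Tubb4b, so the source of its reads is uncertain. Tppp3, the other abundant gene of this class, had 670.2 to 801 CPM (median 724), 630.1 to 814 CPM (median 681), 606 to 751 CPM (median 694) and 405 to 704 CPM (median 625) in control-diet air, control-diet ozone, DHA-diet air and DHA-diet ozone. Its ranges overlapped, and its log2 changes after ozone were -0.08 ± 0.09 (adjusted p = 0.608) and -0.18 ± 0.09 (adjusted p = 0.148). Cfap45, Cfap52, Cfap53 and Cfap126, proteins of the doublet, showed log2 changes from -0.05 to 0.27, none called.

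Sec14l3 had 2564 to 3766 CPM (median 3432) in control-diet air and 3595 to 4144 CPM (median 3875) after ozone, and 2534 to 3286 CPM (median 3159) in DHA-diet air against 2548 to 3517 CPM (median 3278) after ozone. Its ranges overlapped on both diets, and its log2 change after ozone was 0.22 ± 0.08 on the control diet (adjusted p = 0.0661) and 0.07 ± 0.08 on the DHA diet (adjusted p = 0.592). Without control-diet air libraries 1 to 3 it was called higher on the control diet (adjusted p = 0.0159). The cadherin Cdhr3, an airway surface protein of ciliated cells, and the nucleotide kinase Ak9 were not called, with log2 changes from -0.29 to -0.21.

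Among the transcription factors, Rfx3 fell and Mcidas rose after ozone on the DHA diet, and Foxj1 and Rfx2 were not called on either diet. Foxj1, the forkhead factor that drives motile ciliogenesis, had 254 to 349 CPM (median 310.2) in control-diet air and 272 to 341 CPM (median 296) after ozone, and 215 to 309 CPM (median 248) in DHA-diet air against 159 to 303 CPM (median 279) after ozone. The ranges overlapped throughout, and the log2 change was -0.04 ± 0.11 on the control diet (adjusted p = 0.838) and 0.04 ± 0.11 on the DHA diet (adjusted p = 0.826). Rfx2, an RFX factor of ciliary promoters, had 18.9 to 26.4 CPM (median 22.4), 19.8 to 25.1 CPM (median 22.1), 19.01 to 21.7 CPM (median 20.2) and 15.4 to 24.6 CPM (median 20.9) in control-diet air, control-diet ozone, DHA-diet air and DHA-diet ozone, with log2 changes after ozone of -0.03 ± 0.09 and 0.02 ± 0.09. Rfx3, its relative, had 15.4 to 24.5 CPM (median 21.5), 15.4 to 19.8 CPM (median 18.4), 16.1 to 21.9 CPM (median 18) and 11.6 to 18.1 CPM (median 13.7). The DHA-diet ozone libraries were the lowest for Rfx3 apart from library 2. Its log2 change was -0.17 ± 0.11 on the control diet (adjusted p = 0.316) and -0.40 ± 0.11 on the DHA diet (adjusted p = 0.0108).

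Mcidas had 1.39 to 3.48 CPM (median 2.08) in control-diet air and 2.61 to 4.75 CPM (median 3.30) after ozone, and 1.30 to 2.87 CPM (median 2.18) in DHA-diet air against 1.44 to 5.69 CPM (median 3.71) after ozone. The highest values of each diet came after ozone, and the ranges overlapped. Its log2 change was 0.60 ± 0.27 on the control diet (adjusted p = 0.134) and 0.74 ± 0.27 on the DHA diet (adjusted p = 0.0472). The call on the DHA diet was lost in 19 of 34 alternative settings, among them leaving out any 1 of DHA-diet ozone libraries 1, 2, 3 and 5 or of DHA-diet air libraries 1 to 5, with the highest adjusted p at 0.153. Without control-diet air libraries 1 to 3 it was called higher on the control diet as well, with a log2 change of 1.13 (adjusted p = 0.0307). Of 22 other genes of multiciliation and the basal body tested, Ccno, a cyclin-like gene of multiciliated cell precursors, rose on the DHA diet (log2 change 0.75, adjusted p = 0.00502). Plk4, the kinase that starts centriole duplication, rose on the control diet (0.48, adjusted p = 0.0149), and Rfx1 fell there (-0.21, adjusted p = 0.0352). Among all tested genes 8.93% rose and 7.87% fell on the control diet, and 12.7% rose on the DHA diet. The call of Plk4 ended without control-diet air libraries 1 to 3 (adjusted p = 0.0716). Plk4 and Mcidas moved beside cell cycle genes, all 10 of which rose on each diet, from 58.1 to 77.5 summed CPM in control-diet air to 118 to 175 after ozone (8 of the 10 rose on the control diet without air libraries 1 to 3). The part of dividing cells in these changes was not tested.

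With all libraries, longer genes had the lower ozone changes, and on the control diet that relation was weaker without air libraries 1 to 3. Across the 50 genes, Spearman's rho between exon length and the log2 change was -0.67 on each diet, against -0.137 on the control diet and -0.201 on the DHA diet across the 15733 tested genes with an exon length. The rho on the control diet without air libraries 1 to 3 was -0.23 over the 50 genes and 0.096 over all genes. Without DHA-diet ozone libraries 1 and 2 the rho on the DHA diet was -0.702 and -0.273. These are correlations across genes, which share their libraries and are not independent replicates. The 13 genes that fell had a median exon length of 8180 bases on the control diet and 9315 on the DHA diet, against 2887 and 2821 for those not called. Of the 23 genes in the longest tercile of all tested genes, 10 fell on the control diet and 11 on the DHA diet, with a median log2 change of -0.34 and -0.36, where all genes of that tercile had -0.04 and -0.06. The 15 genes of the shortest tercile had medians of 0.01 and -0.03. With control-diet air libraries 1 to 3 left out, 2 of the 23 longest genes fell on that diet (Dnah3 and Cfap65), with a median of -0.03, and the shortest tercile had a median of 0.12. Tekt2, with 1542 bases, fell. Dnah5, with 15637, was not called, though its 95% intervals take in the fitted change of Dnah10, a long gene that fell. The part of transcript length or RNA quality in the fall was not tested.

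**Figure D3:**
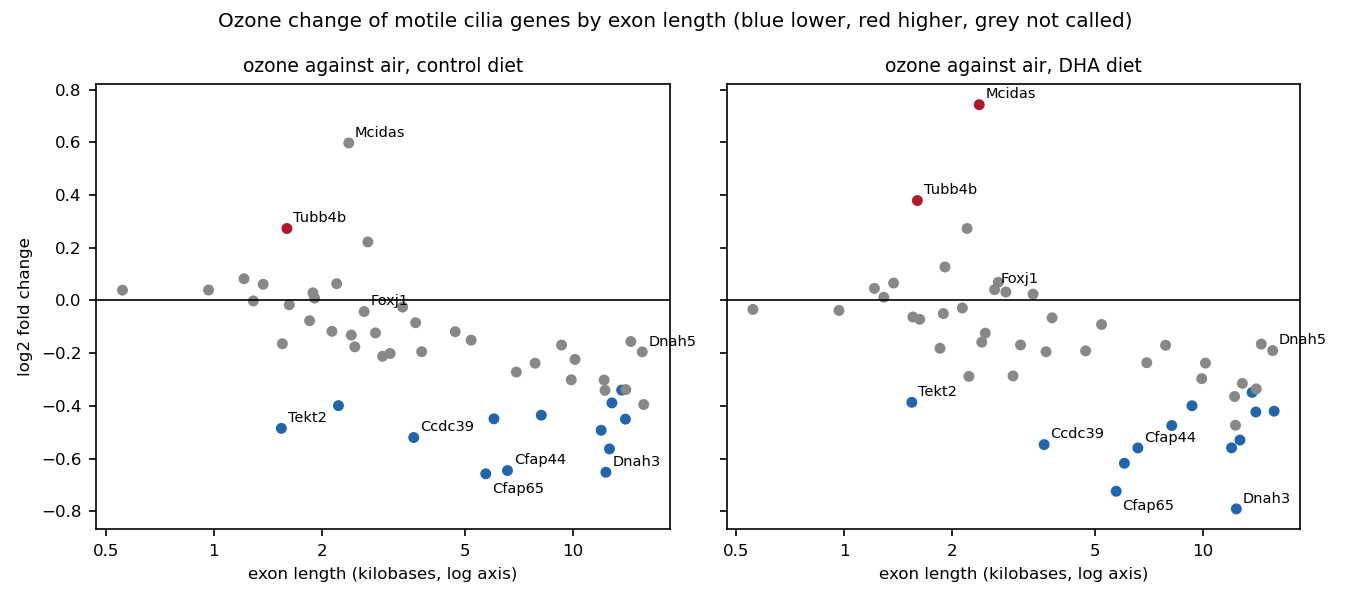
Log2 fold change after ozone (vertical axis) against exon length in kilobases (horizontal log axis) for the 50 motile cilia genes on the control diet (left) and the DHA diet (right), blue where lower, red where higher and grey where not called. Points, drawn with all 24 libraries, slope down to the right in both panels, with Tekt2 and Ccdc39 low for their length.

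Foxj1 served as a reference for the level of ciliated cell transcripts in each library, a choice made after its values were seen. The level of Dnah3 relative to Foxj1 (difference in log2 CPM) ran from -2.15 to -1.60 in control-diet air and from -2.68 to -2.28 after ozone, and from -2.23 to -1.70 in DHA-diet air against -2.92 to -2.43 after ozone. All 12 ozone libraries lay below all 12 air libraries. The difference of the means was -0.59 on the control diet (-0.40 without air libraries 1 to 3) and -0.82 on the DHA diet. Cfap65 relative to Foxj1 gave the same picture, with -0.62 (-0.60 without air libraries 1 to 3) and -0.78, and no overlap among the 24. These were 2 of the 49 other motile cilia genes with that pattern, which 0.0743% of all tested genes showed. None of the 49 lay higher in all 12 ozone libraries (0.198% of all genes). On the control diet alone, 8 of the 49 lay lower with no overlap and 2 higher (0.762% and 2.27% of all genes), and on the DHA diet 3 lower and 0 higher (0.526% and 0.433%). For Tubb4b relative to Foxj1 the difference of the means was 0.31 on the control diet, with no overlap (0.26 without air libraries 1 to 3). On the DHA diet it was 0.36 and the groups overlapped. Ozone library 1, the lowest in Foxj1, stood at 1.74 there, and without it the difference was 0.23. Without that library the difference on the DHA diet was -0.88 for Dnah3 and -0.79 for Cfap65.

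**Figure D4:**
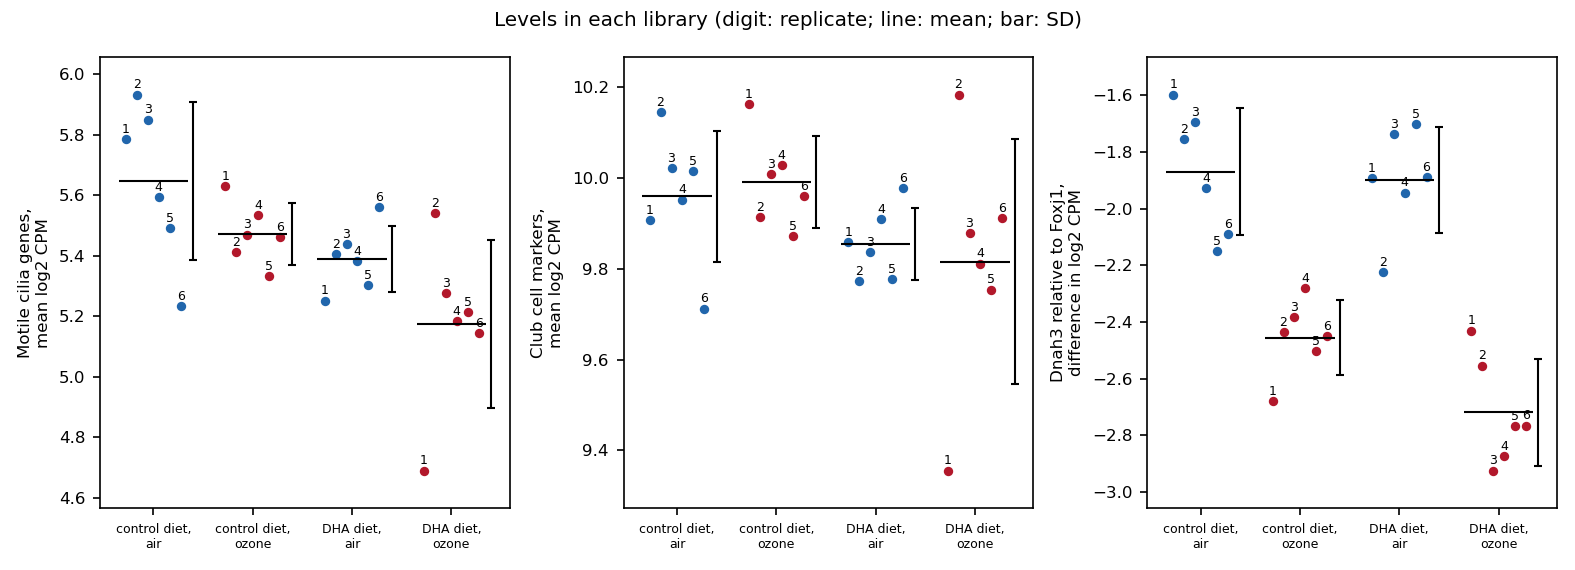
Mean log2 CPM of the 50 motile cilia genes (left), mean log2 CPM of 12 club cell markers (middle) and Dnah3 relative to Foxj1 as a difference in log2 CPM (right), each point a library with its replicate number, each line a group mean and each bar the SD of 6 libraries. The groups overlap in the first and second panels, and the ozone points lie below all air points in the third.

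Under the DHA diet the whole set lay slightly lower, in air and after ozone, but few genes passed the test within either exposure. In filtered air all 50 fitted differences (DHA against control diet) were below 0, where 48.4% of all tested genes were, with a median log2 difference of -0.30 against 0.00 over all genes. Tekt2 was the gene that fell at an adjusted p under 0.05 and none rose, where 0.427% of all genes fell and 0.724% rose. No gene of the set had diet groups in air that did not overlap (0.563% of all genes lower, 1.29% higher). The log2 difference of Tekt2 was -0.45 ± 0.10 (adjusted p = 0.0311), from 28.9 ± 2.5 CPM (SD, n = 6) on the control diet to 21.2 ± 2.67 CPM (SD, n = 6) on the DHA diet. The ranges met through control-diet library 6 and DHA-diet libraries 3 and 6. Without any 1 of control-diet air libraries 1 to 4 or DHA-diet air libraries 1, 2, 4 and 5, the count was 0, and without control-diet air library 6 it was 18. The share of all genes that were lower rose to 2.71% without that library 6. Without control-diet air libraries 1 to 3 the count was 0, as for all tested genes (0.0% lower), and the median log2 difference over the 50 genes was -0.08. The count was 15 without DHA-diet ozone library 1 and 16 without ozone libraries 1 and 2, which enter through the shared estimate of the spread. Of all genes 2.13% and 2.47% were lower in those settings. The next largest difference was that of Dnah10, -0.44 ± 0.12 (adjusted p = 0.0581).

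After ozone 49 of the 50 differences between diets were below 0, against 48.2% of all genes, with a median of -0.28. No gene of the set was called by edgeR in either direction, and none of the 16153 tested was (0.0%). At an unadjusted p under 0.05 there were 32 of the 50, against 14% of all genes, and in air 33 against 17.3%. DESeq2 called 1 of the 50 after ozone and limma-voom 0, and without DHA-diet ozone library 2 edgeR called 8. Of all genes 0.241% were lower with DESeq2, and 0.45% with edgeR without that library. The largest differences were those of Dnah3, -0.46 ± 0.12 (adjusted p = 0.135), and Dnah12, -0.45 ± 0.14 (adjusted p = 0.183). Tekt2 and Sec14l3 had no overlap between the diets after ozone, each lower on the DHA diet (0.495% of all genes lower, 0.334% higher), with adjusted p of 0.175 and 0.175.

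**Figure D5:**
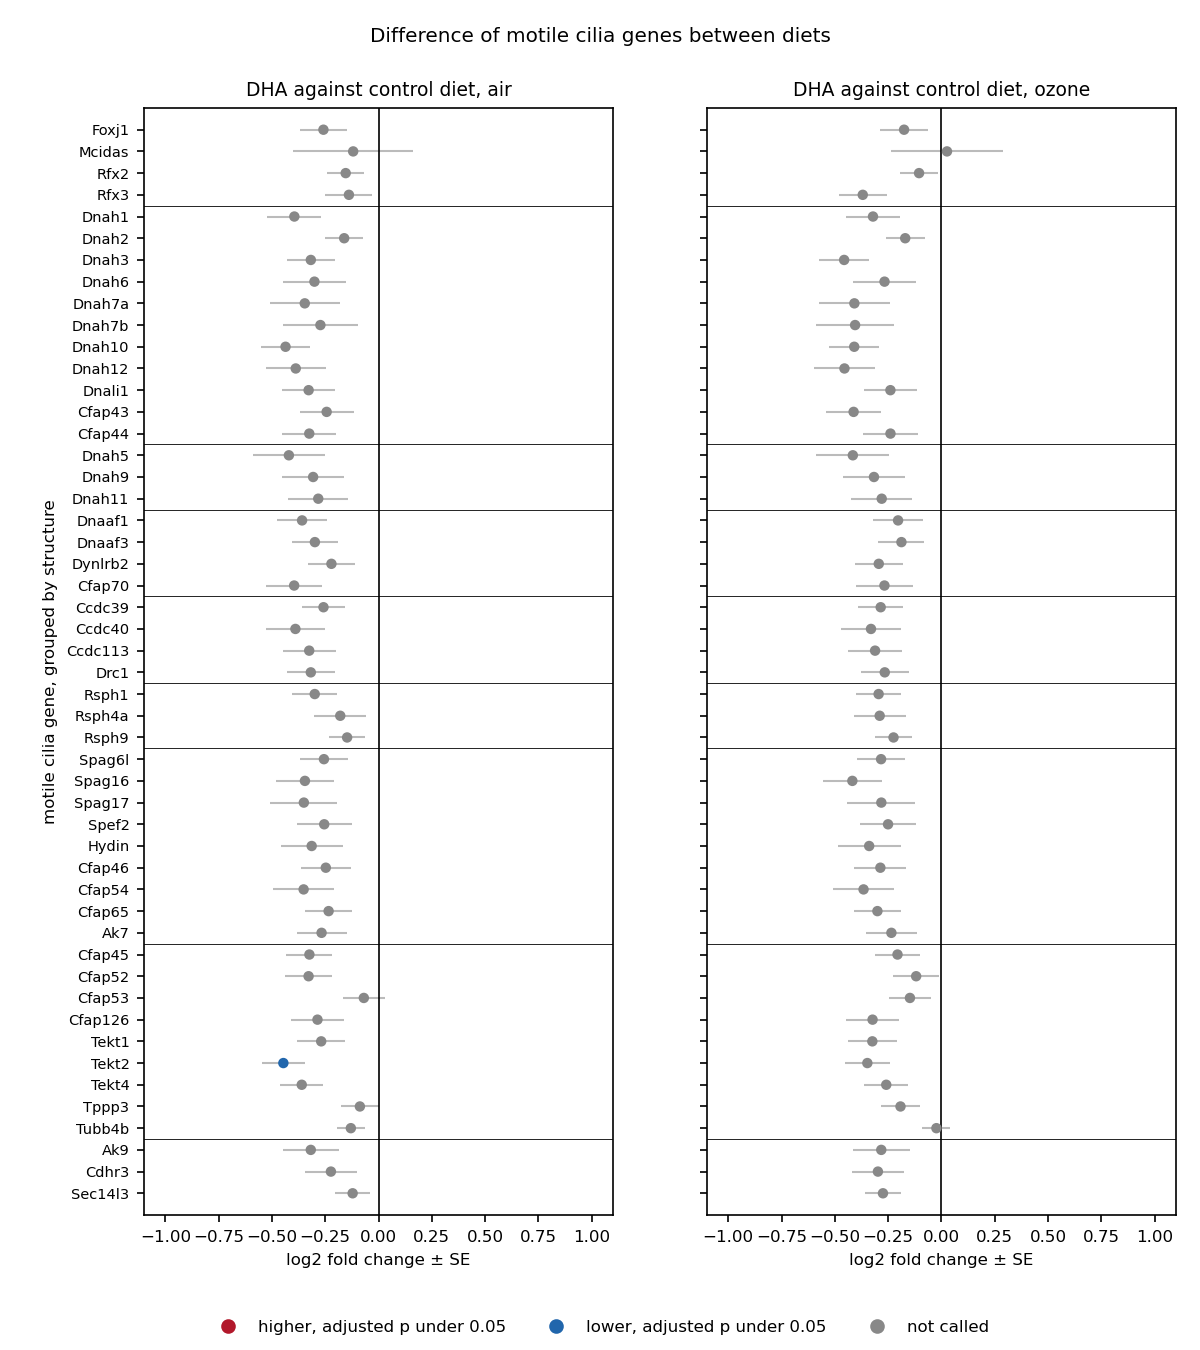
Fitted log2 difference with its SE (horizontal axis) of each motile cilia gene (vertical axis, grouped by structure) between the DHA and control diets in filtered air (left) and after ozone (right). All points but that of Mcidas after ozone lie left of 0, and Tekt2 in air is the one drawn as called.

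Averaged over both exposures, a contrast added after the data were seen, 28 of the 50 genes (56.0%) were lower on the DHA diet and none higher, where 3.87% of all genes were lower and 3.19% higher. The median log2 difference was -0.28. The 28 came from every part of the cilium. Among them were Rfx3 of the regulators, 6 of 11 genes of the inner arm class, 1 of 3 outer arm dynein genes and all 4 of the assembly and other dynein chain class. The rest were all 4 ruler and nexin link genes, 1 of 3 radial spoke, 4 of 9 central pair and 5 of 9 doublet genes, and Ak9 and Sec14l3. Tekt2 (-0.40 ± 0.07, adjusted p = 0.00492) and Dnah10 (-0.42 ± 0.08, adjusted p = 0.00639) had the smallest adjusted p. Foxj1 (-0.22 ± 0.08, adjusted p = 0.0892) and Tubb4b (-0.08 ± 0.05, adjusted p = 0.332) were not called. The count rests on control-diet air libraries 1 to 3: it was 0 without all 3 of them, with a median of -0.18. In that setting 0.0244% of all genes were lower and 0.0365% higher, so calls were lost over all genes and not in this set alone. Leaving out 1 library gave 9, 8, 15 and 45 without control-diet air libraries 1, 2, 3 and 6. The shares of all genes that were lower were then 2.30%, 1.86%, 2.71% and 5.86%. The count was 14, 14 and 13 without DHA-diet air libraries 1, 2 and 5 (2.90%, 2.58% and 2.51% of all genes). Without control-diet ozone libraries 1, 3 and 4 it was 12, 15 and 14 (2.59%, 2.57% and 2.52% of all genes). Without DHA-diet ozone libraries 2 and 4 the count was 44 and 18, where 5.46% and 2.98% of all genes were lower.

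Whether ozone changed the genes differently on the DHA diet was asked of the interaction of diet and exposure. No gene of the set was called by edgeR, and none of all tested genes was (0.0%). At an unadjusted p under 0.05 there were 0 of the 50, against 6.12% of all genes, and DESeq2 and limma-voom called 0 of the 50. The median log2 interaction was 0.00, and 24 of the 50 were below 0, against 49.7% of all genes. The largest was that of Rfx3, -0.23 ± 0.16 with a 95% interval from -0.54 to 0.08, followed by Cfap52, a protein inside the doublet, at 0.21 ± 0.15 with an interval from -0.09 to 0.51. Cfap52 had 26.5 to 39.8 CPM (median 34.4) in control-diet air and 29.6 to 44.4 CPM (median 35.2) after ozone, and 22.5 to 31.04 CPM (median 27.4) in DHA-diet air against 25.7 to 37.9 CPM (median 33.6) after ozone. The groups overlapped, and no difference in the ozone response was detectable at the spread of these libraries. Without control-diet air libraries 1 to 3 the median log2 interaction was -0.23, with no gene called.

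Other cilia genes, from lists that do not repeat the 50, were counted in the same way. Of 62 other axonemal genes tested, 9 fell after ozone on the control diet and 12 fell on the DHA diet, where 1 rose. Among all tested genes 7.87% fell on the control diet, and 11% fell and 12.7% rose on the DHA diet. The count on the control diet was 3 without air libraries 1 to 3 (Dnah17, Cfap69 and Cfap74), and without DHA-diet ozone libraries 1 and 2 the count on the DHA diet was 9. The shares of all genes that fell in those settings were 5.79% and 10.2%. The smallest adjusted p were those of Cfap74 (log2 change -0.60, adjusted p = 0.00029), a central pair protein, and Dnah17 (-0.83, adjusted p = 0.000484), a dynein heavy chain, on the control diet, and of Cfap100 (-0.63, adjusted p = 0.000178), a dynein tether protein, on the DHA diet. On the diet contrast over both exposures 32 of the 62 were lower, with a median log2 difference of -0.26, where 3.87% of all genes were lower. That count was 0 and the median -0.19 without control-diet air libraries 1 to 3, and 4 genes were lower among all tested. Of 33 genes of intraflagellar transport (the train that carries parts into cilia of any kind) and the BBSome, 0 were called after ozone on the control diet. With DHA 4 rose, among them Arl6 (0.29, adjusted p = 0.00331) and Ift22 (0.25, adjusted p = 0.0118), and Bbs2 fell (-0.31, adjusted p = 0.0054). The 4 of 33 lay near the 12.7% of all genes that rose on that diet, where 11% of all genes fell. On the diet contrast 4 of the 33 were lower, led by Wdr19 (-0.34, adjusted p = 0.0115), and without control-diet air libraries 1 to 3 there were 0.

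Markers of other airway and lung cells were counted beside the cilia genes, and none of the markers on the lists was at 0 in any library. The shares of all tested genes to set beside the ozone counts are 8.93% higher and 7.87% lower on the control diet. On the DHA diet they are 12.7% and 11%. Club cells are the secretory neighbours of ciliated cells. After ozone 3 of 12 club cell markers rose and 1 fell on the control diet, with Hp at a log2 change of 0.39 (adjusted p = 0.00197) and Scgb3a1 at -0.47 (adjusted p = 0.00932). With DHA 3 rose. Hp was the club cell marker still called on the control diet without air libraries 1 to 3, and Scgb3a1 was not called (adjusted p = 0.127). General epithelial markers rose on both diets, 5 of 9 on each, with Krt19 at 0.43 (adjusted p = 0.00114) and 0.61 (adjusted p = 2.07e-05). Their summed level was 1404 to 1736 CPM in control-diet air, 1797 to 2017 after ozone, 1405 to 1697 in DHA-diet air and 1721 to 2096 after ozone.

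Of 10 alveolar type 2 markers 7 rose after ozone on the control diet (6 without air libraries 1 to 3) and 3 on the DHA diet. Of 8 alveolar type 1 markers 3 rose on each diet (0 on the control diet without those air libraries). Of 6 smooth muscle markers 1 rose on the control diet (0 without those air libraries) and 5 on the DHA diet. Of 10 immune cell markers 2 rose on the control diet (0 without those air libraries) and 5 on the DHA diet (2 without ozone libraries 1 and 2). The smooth muscle markers summed to 585 to 913 CPM in control-diet air, 745 to 829 after ozone, 563 to 696 in DHA-diet air and 813 to 928 after ozone. The immune cell markers summed to 178 to 323, 228 to 331, 187 to 271 and 238 to 488 CPM in the same order. Between diets in air, 2 of the 6 smooth muscle markers were lower and 5 of the 10 alveolar type 2 markers higher with DHA. Among all tested genes 0.427% were lower and 0.724% higher. Without control-diet air libraries 1 to 3 there were 0 of either marker list, as for all tested genes (0.0% either way). Of 36 goblet, basal, neuroendocrine, endothelial and fibroblast markers tested, 4 rose and 3 fell after ozone on the control diet, and 3 rose and 4 fell on the DHA diet. These counts of 36 lay near the shares of all genes, 8.93% and 7.87% on the control diet and 12.7% and 11% on the DHA diet.

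On the diet contrast 2 of 12 club cell markers (Gabrp and Cckar) and 3 of 8 goblet cell markers (Clca1, Bpifb1 and Muc5ac) were lower, beside the 28 cilia genes, and 5 of 10 alveolar type 2 markers were higher. Among all tested genes 3.87% were lower and 3.19% higher. None of these markers and cilia genes was called without control-diet air libraries 1 to 3, where 0.0244% of all genes were lower and 0.0365% higher. The club cell markers summed to 104375 to 141647 CPM in control-diet air, 112291 to 160697 in control-diet ozone, 103778 to 121183 in DHA-diet air and 68665 to 133084 in DHA-diet ozone. Their lowest value was in DHA-diet ozone library 1, the library lowest in cilia genes. The alveolar type 2 markers summed to 24762 to 36829.6, 34575 to 36006, 34773 to 38451 and 36569.9 to 39830.4 CPM in the same order. The part of these cell types, and of the airway share of each lung sample, in the cilia gene results was not tested.

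Promoters were read for letters bound by the factors above, since the genes move together. RefSeq promoters (GRCm38.p6, 250 bases before to 50 after the start site) were found for 41 of the 50 genes. The X-box of RFX factors, searched on both strands as GTT, 1 free base, CC, 2 free bases, GG, 1 free base and AAC, was in the promoter of 1 of the 41 (2.44%), against 0.645% of tested genes with a promoter and 0.529% of all genes in the table. A forkhead site searched as GTAAACA on both strands was in 2 of the 41 (4.88%), against 3.25% of tested genes and 4.05% of all. The stretches of 60 bases that hold them are shown 5′ to 3′ on the gene's strand, with the matched letters in capitals. They show which members carry a match, in Ak9 for the X-box, and in Ak7 and Cfap43 for the forkhead site, which in Ak7 is read on the opposite strand:
Ak9, chr10:41303877-41303936, plus strand: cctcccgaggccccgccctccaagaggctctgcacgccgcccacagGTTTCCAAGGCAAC
Ak7, chr12:105705828-105705887, plus strand: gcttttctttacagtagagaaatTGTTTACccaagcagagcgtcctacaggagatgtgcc
Cfap43, chr19:47837380-47837439, minus strand: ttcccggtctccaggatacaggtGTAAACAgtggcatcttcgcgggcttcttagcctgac
The X-box of Ak9 begins 11 bases before the start site, and the forkhead letters begin 131 bases before it in Ak7 and 55 in Cfap43. Of these 3 genes Cfap43 fell after ozone, and Ak9 and Ak7 were not called. A match of letters is a description and not a bound site.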

How the data were processed

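RNA of 24 mouse lung samples was sequenced. Per the submitters' processing notes, Partek, STAR and HTSeq were used with the mm39 build. No source used here gives their versions, the annotation or the strand setting. The file holds deposited whole-number counts per gene, with no normalization by the authors.

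The count filter was filterByExpr on the 4 groups (at least 10 counts, total of at least 15). Counts scaled by TMM entered edgeR 4.0.16 (R 4.3.3, limma 3.58.1), fitted by quasi-likelihood with 1 mean per group and 20 residual degrees of freedom. P-values were Benjamini-Hochberg adjusted over all 16153 genes, with a threshold of 0.05. The SE is the size of the log2 change over the square root of F. Levels are CPM on TMM-scaled totals, with a prior count of 2 for log2 CPM. Exon lengths (union of exons) came from GENCODE M21 on GRCm38, used for lengths alone. Total counts of 18053493 to 26225630 per library set the counting precision. The fit was also run on counts simulated gene by gene from the means and spread of these data. They lack the shared movement of the cilia genes between libraries, so that run bears on no call here. Of the RefSeq tables, promoters and synonyms were used.

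Members and lists were chosen with earlier results of these data known. By rule, values in every group are given for Foxj1, Mcidas, Rfx2 and Rfx3, for up to 8 called members with the smallest adjusted p per comparison, for the 2 largest differences where fewer than 2 were called, and for the 3 highest and 3 lowest by CPM per kilobase. From other lists, up to 4 called genes per comparison could be named. Dnah6, Dnah1, Hydin and other members outside the rule were named after their values were seen. Alternatives were DESeq2 1.42.0, weighted limma-voom, RLE scaling, library totals, a 1 CPM minimum in 6 libraries, no filter, 2 groups alone, the replicate number as a block, and leaving out libraries.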

Additional observations from a re-analysis of the deposited data

Results flagged for a closer look

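Of 80 sets of 6 libraries looked at (20 genes in 4 groups), 8 held a library that stood far from the other 5 of its group. Chance gives about 1 in 20 for independent sets. These genes rise and fall together over the same libraries, so that rate cannot show an excess here. DHA-diet ozone library 1 was far below its group for Foxj1 (159 CPM), Rsph1 (51.2 CPM) and Tekt2 (9.98 CPM). Library 2 of that group was far above it for Rfx3 (18.1 CPM), Ccdc39 (31.5 CPM) and Dnah2 (30.9 CPM). Control-diet air library 6 was far below its group for Tekt2 (24.2 CPM). Control-diet ozone library 1 was far above its group for Tubb4b (691 CPM). Without DHA-diet ozone libraries 1 and 2, the changes after ozone on the DHA diet were -0.27 for Tekt2 (adjusted p = 0.0196 in edgeR) and 0.35 for Tubb4b (adjusted p = 0.000634) on the log2 scale.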

How the results depend on the processing

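Over 34 alternatives no called gene changed sign. After ozone on the control diet the calls of Dnah3, Cfap65, Tekt2 and Tubb4b held in all 34. On the DHA diet every call held except those of Mcidas, kept in 15 of 34, and Hydin, kept in 26. Counts in the higher direction are small, and the depth limits Mcidas, which had as few as 27 counts in a library.

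After ozone on the control diet, members called higher numbered 2 with DESeq2, with limma-voom and without DHA-diet ozone libraries 1 and 2, and 3 without control-diet air libraries 1 to 3. Without those air libraries members called lower numbered 3 and the median log2 change was 0.041. After ozone on the DHA diet, members called higher numbered 1 with library totals, no filter, the replicate block and 2 groups alone. Of all genes 11.4%, 8.98%, 11.4% and 11.6% were higher in those settings, in that order. Between diets in air, members called lower numbered 3 with library totals and DESeq2, 18 with limma-voom, 7 with 2 groups alone, 16 without DHA-diet ozone libraries 1 and 2, and 0 without control-diet air libraries 1 to 3, where the median was -0.077. Of all genes 0.70% were lower with library totals, 1.67% with DESeq2, 2.73% with limma-voom and 1.09% with 2 groups alone. Between diets after ozone DESeq2 called 1 lower, where 0.241% of all genes were lower. Without control-diet air libraries 1 to 3 the median interaction was -0.23 and members called lower over both exposures numbered 0, where 0.0244% of all genes were lower. The cause of these shifts was not tested. For the other lists, exon length and the level relative to Foxj1, these omissions were chosen after the data were seen.

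Leaving out 1 library at a time gave 1 to 2 higher and 11 to 17 lower after ozone on the control diet (median -0.27 to -0.11), and 1 to 3 higher and 12 to 19 lower on the DHA diet (median -0.28 to -0.09). Of all genes 6.68% to 9.22% were then higher and 5.80% to 9.56% lower on the control diet. On the DHA diet the shares were 10.4% to 13.8% higher and 8.55% to 11.3% lower. Between diets it gave 0 to 18 lower in air (median -0.38 to -0.24) and 0 to 8 after ozone (median -0.37 to -0.19). In air the share of all genes that were lower ran from 0.0740% to 2.71% over the same omissions, and after ozone from 0.0% to 0.45%. For the interaction, leaving out 1 library gave 0 calls (median -0.09 to 0.10), and over both exposures 8 to 45 lower (median -0.33 to -0.24). Over both exposures 1.86% to 5.86% of all genes were lower.

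The replicate numbers do not pair libraries by the labels. Once group means were taken out, same-numbered libraries correlated at -0.0169 on average, from -0.21 to 0.0966, against 0.00341 for other pairs, and 0 of 24 were closest to their own number. With the number as a replicate block, 1 member was called higher and 13 lower after ozone on the control diet, 1 and 15 on the DHA diet, 0 and 1 between diets in air, and 0 and 20 over both exposures. The shares of all genes higher and lower were 7.84% and 6.56%, 11.4% and 9.84%, 0.396% and 0.130%, and 2.08% and 2.72% in the same order.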
